A study of Mus musculus with 3 samples.

Results

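The genes described here are the 42 collagen genes among the 24028 gene identifiers counted in skin papillomas, taken as every mouse symbol made of Col, a number, the letter a and a number. Col17a1 and Col7a1, collagens made by keratinocytes for hemidesmosomes and anchoring fibrils, were left out of the set. Papillomas are benign tumours of the epidermis, and here they were raised in C57BL/6 mice by DMBA, a carcinogen, followed by TPA, a tumour promoter. The wild-type library came from mice with endogenous galectin-7, a lectin of stratified epithelia. The Lgals7-/- library came from mice lacking it, and the Tg46 library from mice carrying a galectin-7 transgene driven by the keratin 14 promoter, which is active in basal keratinocytes. All mice received DMBA and TPA. Each genotype was represented by 1 library made from 3 pooled tumours, and differences between genotypes therefore lack any replicate check.

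Collagens are proteins of the extracellular matrix in which 3 chains wind into a triple helix. Fibrillar collagens form the cables of the dermis and of tumour stroma, fibril-associated collagens decorate those cables, and network-forming collagens build sheets such as the basement membrane beneath the epidermis. In skin, fibroblasts make most of the fibrillar chains, and the assembly needs hydroxylases, chaperones, propeptide proteases and crosslinking enzymes.

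Library totals were 172011 (wild-type), 312600 (Lgals7-/-) and 354499 (Tg46) counts, which is shallow for a transcriptome. Genes that every cell uses were also near 0, with Gapdh at 0, 5 and 4 counts and Actb at 3, 13 and 13, so levels relative to other genes in this table may not be those in the tissue. Levels are given as CPM, a gene's share of the library total scaled with edgeR's TMM factors. A count of 0 allowed a level of up to 17.4, 9.11 and 8.95 CPM, the level of 3 counts. Lgals7, the targeted gene, held 0, 2 and 4 counts, too few to check the genotype labels. Every ratio compares 2 libraries and not 2 genotypes. The intervals are exact 95% intervals of the pair of counts and cover counting error only. Calls, higher or lower, required a ratio of at least 2-fold with an interval excluding 1. No source used here says whether strand was used in counting, so reads of a gene and of a gene across it on the other strand cannot be told apart.

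All 42 collagen genes were counted in every library, and none was at 0. Counts per gene ranged 2 to 44 (median 18) for wild-type, 6 to 61 (median 24) for Lgals7-/- and 7 to 86 (median 22.5) for Tg46. Together they held 742, 1129 and 1211 counts, or 0.431%, 0.361% and 0.342% of each library. Per kb of exon the summed level was 12.9 CPM for wild-type (95% Poisson interval 12.0 to 13.9), 10.3 for Lgals7-/- (9.74 to 11.0) and 10.9 for Tg46 (10.3 to 11.5). The same quantity over all genes with an exon length was 9.86, 9.41 and 10.4 CPM per kb. It lay below the collagen interval in wild-type and Lgals7-/- and within it in Tg46. The median collagen gene stood at 12.6, 10.2 and 10.2 CPM per kb, above the median of all genes at 5.69, 6.78 and 6.6.

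The order of the collagen genes per kb of exon was not that of dermal stroma. Col10a1, the type X chain known from hypertrophic cartilage, had the highest level per kb in all 3 libraries, at 74.0, 50.5 and 82.0 CPM per kb. Col1a1, a chain of the main fibrillar collagen of skin, stood at 17.6, 28.2 and 27.7 CPM per kb, second in Lgals7-/- and in Tg46. Its partner Col1a2 stood at 8.38, 5.13 and 5.28 CPM per kb, and Col3a1, the type III chain of skin and vessels, at 10.6, 4.64 and 8.21. Among all genes with an exon length, Col1a2 was at percentiles 61.4, 38.8 and 40.5 of the level per kb, and Col3a1 at 69.0, 35.4 and 60.1. Exon length merges all annotated transcripts, and was 12426 bases for Col1a2 and 6563 for Col1a1. Ranked by count among all genes, Col1a2 was at percentiles 91.4, 84.1 and 85, and Col3a1 at 91.4, 73.6 and 89.2. The set was put forward as collagens of the tumour stroma, but the levels per kb did not put the stromal chains first, and the genes are called collagen genes here. The position of Col10a1 rests on 40, 52 and 86 counts. Its exons overlap by 18 bases those of Nt5dc1 on the opposite strand, and Nt5dc1 held 0, 5 and 8 counts.

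A low reference level came from 1493 chemosensory receptor genes, which have no known role in skin tumours and stood at 3.22, 2.51 and 2.32 CPM per kb in wild-type, Lgals7-/- and Tg46. With a 95% Poisson interval on each count, 31 of the 42 collagen genes lay above that rate in wild-type and 38 in each of the other libraries. The share of all genes above it was not counted. Their pooled level, 9.86, 9.41 and 10.4 CPM per kb, also lay above that rate, so the position is not particular to collagens. The 11 genes within the rate in wild-type were Col2a1, Col4a1, Col4a5, Col5a3, Col6a4, Col8a1, Col13a1, Col20a1, Col22a1, Col25a1 and Col26a1. In Lgals7-/- the 4 genes within it were Col8a1, Col9a3, Col11a1 and Col26a1, and in Tg46 they were Col6a6, Col8a1, Col11a1 and Col28a1. Across the 42 genes, which share library and depth, the Spearman correlation of count with exon length was 0.257, 0.204 and 0.231 in the 3 libraries, given as a description.

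**Figure D1:**
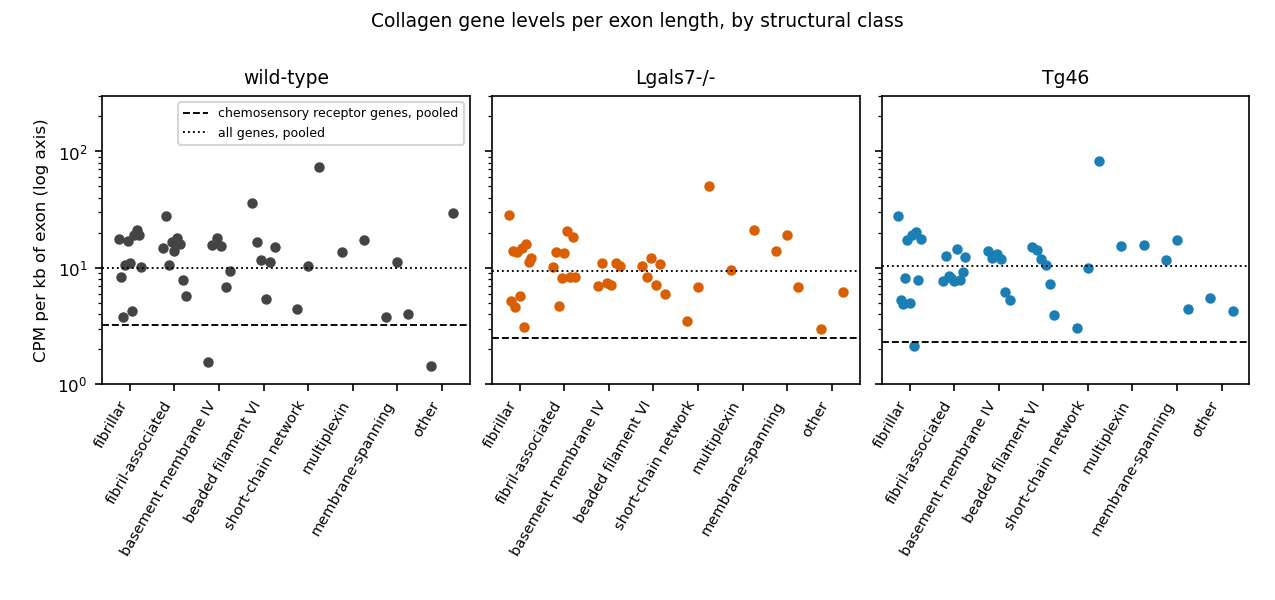
CPM per kb of exon on a log axis for the 42 collagen genes (points), grouped by structural class, in each library. The dashed line is the pooled level of chemosensory receptor genes (3.22, 2.51 and 2.32) and the dotted line that of all genes (9.86, 9.41 and 10.4); the highest point in every panel is Col10a1, at 74.0, 50.5 and 82.0.

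Comparing the libraries, 41 of the 42 collagen genes reached 10 counts in at least 1 library and were compared; Col8a1, with 6, 9 and 8 counts, was not. A gene could pass this filter through a high count in a single library, which also favours a call. In Lgals7-/- over wild-type, 5 collagen genes were called higher (12.2%), 8 lower (19.5%) and 28 neither, against 13.3% higher and 13.7% lower among the 12940 genes compared. In Tg46 over wild-type, 3 were called higher (7.32%), 8 lower (19.5%) and 30 neither, against 13.7% and 13.9% of all genes. In Tg46 over Lgals7-/-, 0 were called higher, 1 lower (2.44%) and 40 neither, against 8.43% and 7.73% of all genes. Scaled by upper-quartile factors, the collagen genes split into 5 higher and 5 lower in Lgals7-/- and 7 higher and 5 lower in Tg46, both over wild-type. The share of all genes called under that scaling was not counted. Their median log2 ratio to wild-type was then 0.31 and 0.35, beside 0.10 and 0.11 with TMM factors. With TMM factors, the shares called lay near the background, or below it for genes higher in Tg46 over wild-type and for both directions in Tg46 over Lgals7-/-. Among the 8351 genes with at least 30 counts in the 3 libraries together, which 39 collagen genes reached, the background against wild-type was 11.9% higher and 12.8% lower for Lgals7-/- and 13.7% and 13.3% for Tg46. For Tg46 over Lgals7-/- it was 8.14% and 6.26%. Both comparisons with wild-type share the same wild-type library, the one with the smallest total.

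The middle of the collagen genes lay below that of all genes compared in both comparisons with wild-type. Their median log2 ratio was -0.41 in Lgals7-/- over wild-type and -0.23 in Tg46 over wild-type, beside 0.10 and 0.11 over all genes compared. In Tg46 over Lgals7-/- it was -0.03, beside -0.03 over all genes. Scaled by upper-quartile factors, the collagen medians against wild-type were -0.20 and 0.01, and the median of all genes was then 0.31 and 0.35. A library scaling adds the same amount to every log2 ratio, so the difference between the collagen median and the median of all genes, -0.51 and -0.34, cannot depend on it. The difference did depend on the filter. Among genes with at least 30 counts in the 3 libraries together, the median of all genes was -0.01 and 0.02. The collagen medians there were -0.41 and -0.23, so the difference was smaller. Over the 31 compared genes with no opposite-strand exon overlap, the collagen medians were -0.08 in Lgals7-/- over wild-type and -0.32 in Tg46 over wild-type, so the first was much nearer 0. Summed over all 42 genes, the scaled collagen count in Lgals7-/- was 0.799 times that of wild-type (0.727 to 0.877) and in Tg46 0.841 times (0.767 to 0.923), and Tg46 stood at 1.05 times Lgals7-/- (0.971 to 1.14). With upper-quartile factors the ratios to wild-type were 0.926 and 0.993. In pooled tumour tissue, fewer collagen-making cells and less collagen RNA per cell cannot be told apart.

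**Figure D2:**
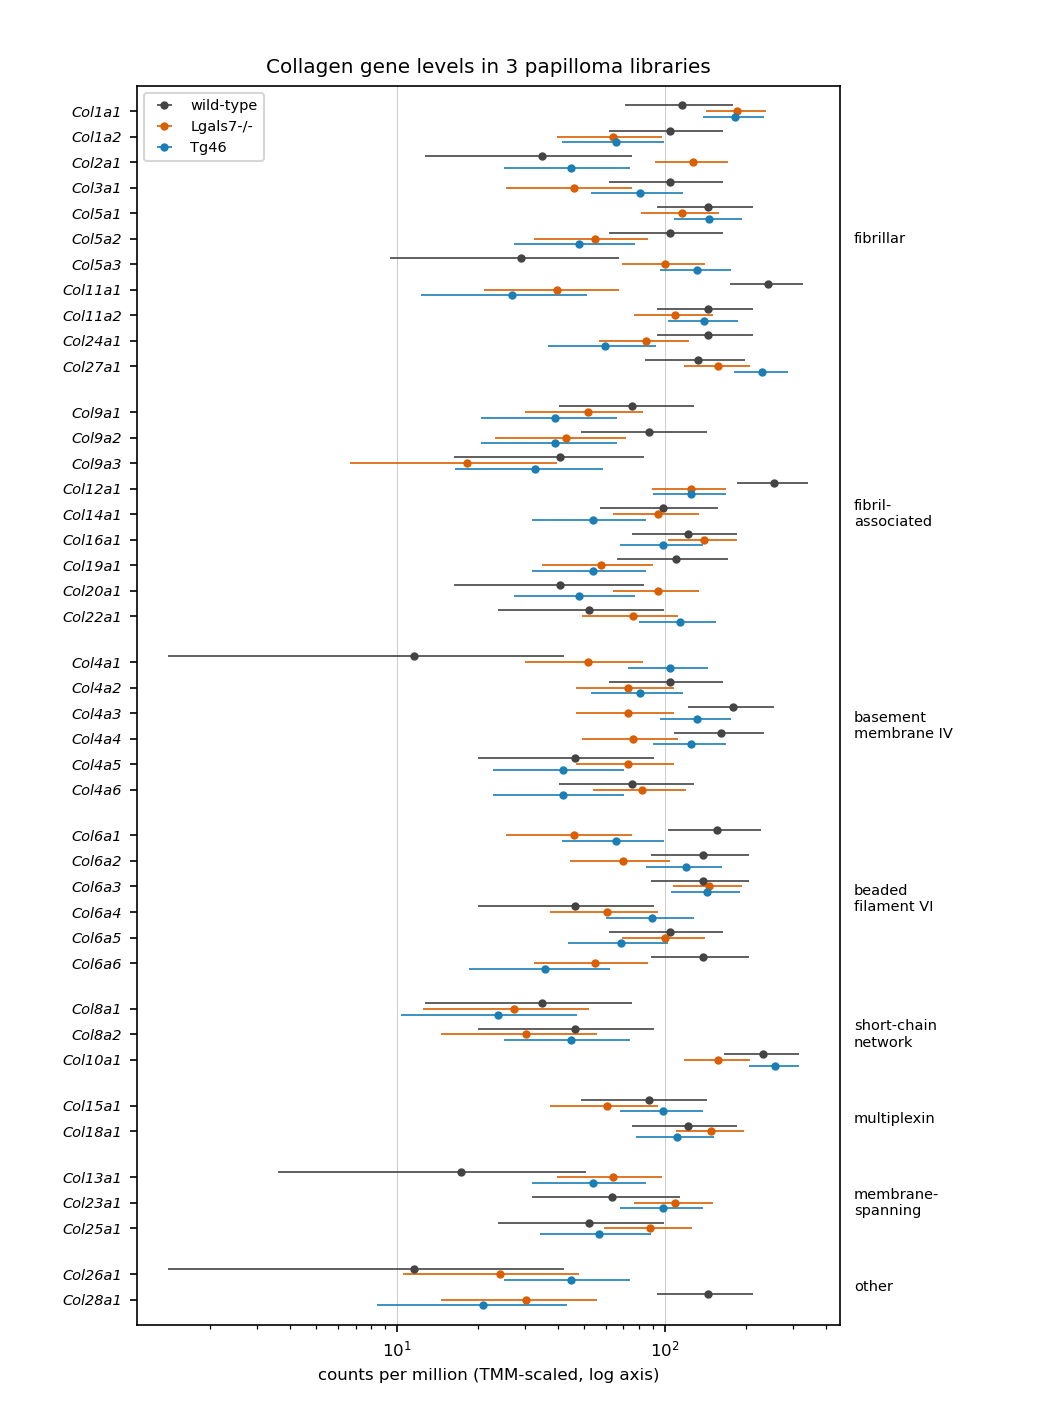
Level of each collagen gene in CPM on a log axis (TMM-scaled) in the wild-type, Lgals7-/- and Tg46 libraries; bars are exact 95% Poisson intervals of the single count. Most intervals of the 3 libraries overlap within a gene, and the wild-type points of Col11a1 (243 CPM) and Col28a1 (145 CPM) are among those that stand clear of those of the other libraries.

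**Figure D3:**
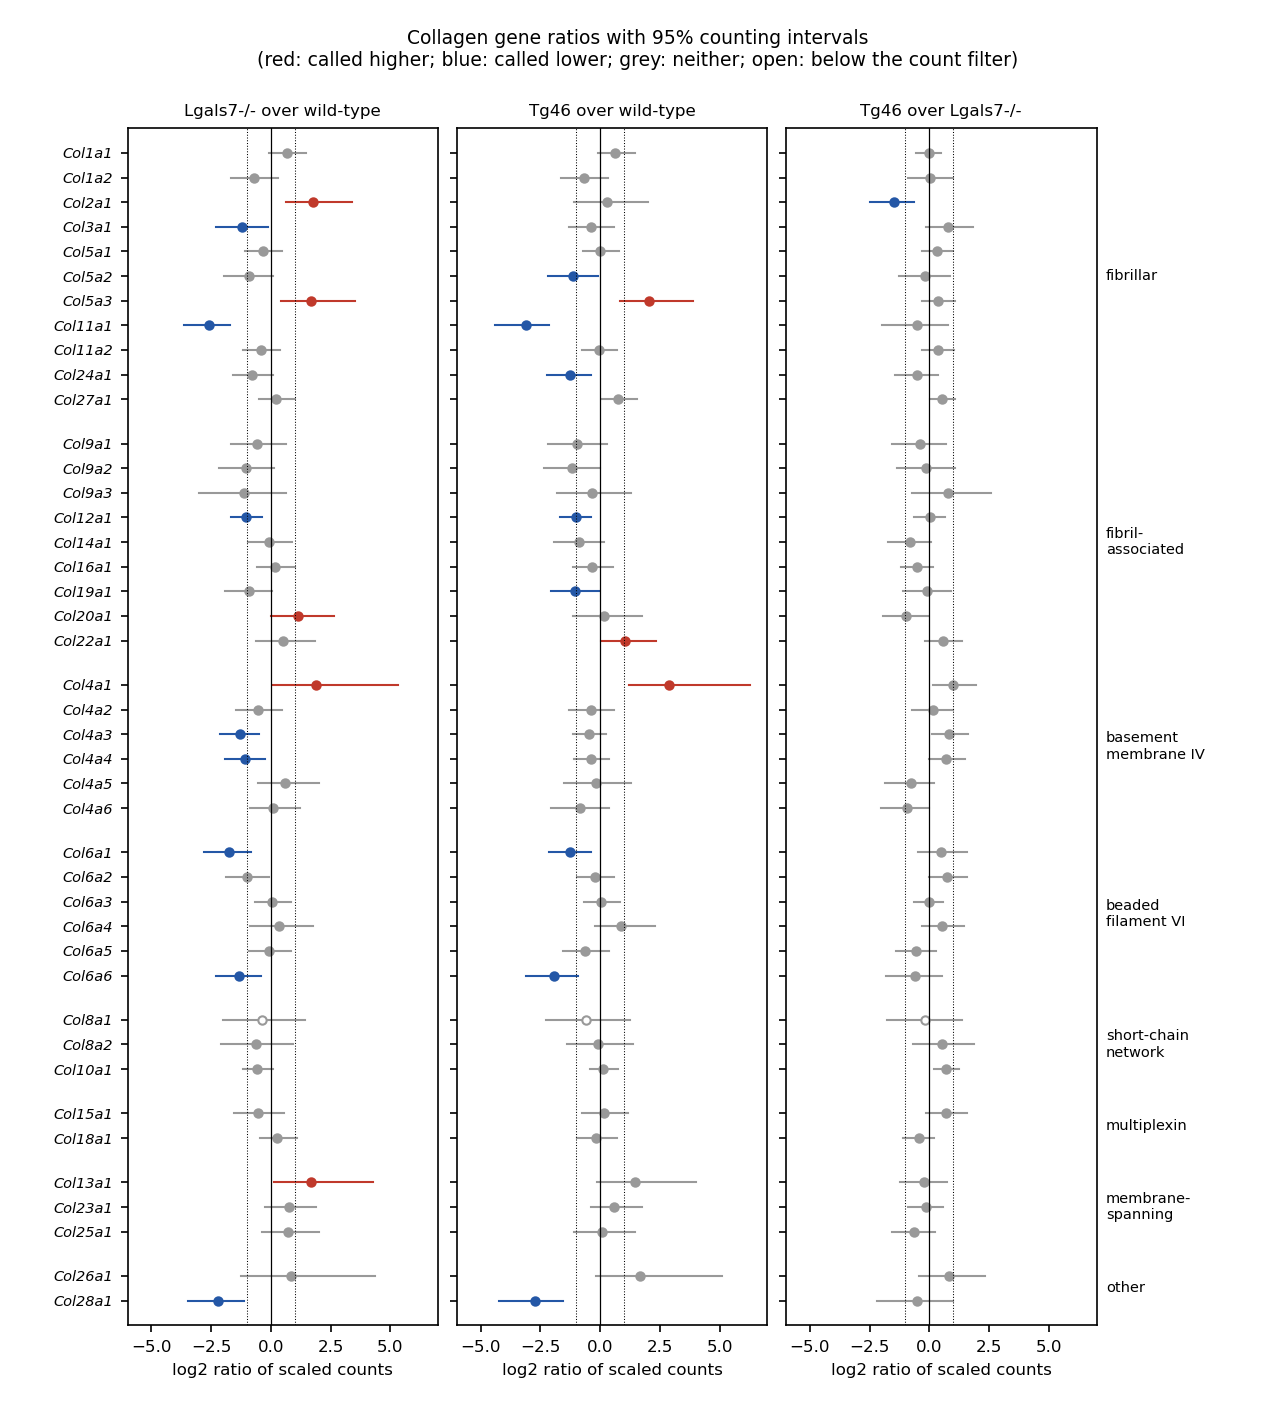
Log2 ratio of scaled counts for each collagen gene in the 3 comparisons, with exact 95% counting intervals; dotted lines mark 2-fold. Called genes are coloured, 13 in Lgals7-/- over wild-type, 11 in Tg46 over wild-type and 1 in Tg46 over Lgals7-/-, and the open point is Col8a1, below the count filter.

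Among the 11 fibrillar collagens, Col11a1 and Col5a3 had the lowest and the highest ratio in Tg46 over wild-type; in Lgals7-/- over wild-type Col11a1 was again lowest and Col2a1, described further on, highest. Col11a1, a chain of the type XI collagen that nucleates thin fibrils in cartilage and is also made by fibroblasts of some tumours, held 42, 13 and 9 counts, in the order wild-type, Lgals7-/- and Tg46 used from here on. Wild-type was the high library by a wide margin, and Col11a1 was called 6.00-fold lower in Lgals7-/- (3.24 to 12.5) and 8.68-fold lower in Tg46 (4.34 to 21.1). Col5a3, a chain of the type V collagen that sets fibril diameter, went the other way, with 5, 33 and 44 counts. It was called 3.20-fold higher in Lgals7-/- (1.34 to 11.4) and 4.17-fold higher in Tg46 (1.80 to 14.7). Neither gene was called in Tg46 over Lgals7-/-, and with 5 counts added the call on Col5a3 in Lgals7-/- was lost. The bases just before the annotated start of each gene are printed because these are the fibrillar genes with the lowest and the highest ratio in Tg46 over wild-type, and those before Col10a1 because it held the most counts. The sequences are from RefSeq (GRCm38.p6), read 5′ to 3′ on the gene's strand and trimmed to bases outside the gene. Col11a1 is chr3:114030290-114030478 (plus strand), Col5a3 chr9:20815118-20815317 (minus strand) and Col10a1 chr10:34389731-34389980 (plus strand). Capitals mark 3 motifs on either strand, which do not overlap each other here: the CCAAT box, spelled CCAAT and on the other strand ATTGG; the GC box, spelled GGGCGG and on the other strand CCGCCC; and the TATA box, spelled TATAAA and on the other strand TTTATA.
Col11a1: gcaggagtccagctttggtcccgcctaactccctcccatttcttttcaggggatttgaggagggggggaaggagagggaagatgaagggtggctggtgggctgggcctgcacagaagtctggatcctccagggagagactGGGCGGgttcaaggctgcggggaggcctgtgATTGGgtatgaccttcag
Col5a3: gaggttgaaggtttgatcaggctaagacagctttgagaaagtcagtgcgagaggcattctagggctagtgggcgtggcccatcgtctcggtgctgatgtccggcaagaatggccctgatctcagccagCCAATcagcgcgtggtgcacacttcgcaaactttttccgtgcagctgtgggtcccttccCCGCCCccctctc
Col10a1: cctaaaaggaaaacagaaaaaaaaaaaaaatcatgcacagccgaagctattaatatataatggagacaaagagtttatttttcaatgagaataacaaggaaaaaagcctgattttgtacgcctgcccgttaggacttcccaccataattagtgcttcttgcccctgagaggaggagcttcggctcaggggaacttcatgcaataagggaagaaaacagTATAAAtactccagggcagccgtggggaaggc
Col11a1 and Col5a3, which were called in opposite directions, each hold 1 CCAAT and 1 GGGCGG and no TATAAA, and Col10a1 holds 1 TATAAA and neither of the others. In full windows of 250 bases before an annotated start, counted on both strands, CCAAT was present in 11 of the 36 windows found for 33 collagen genes (30.6%, against 33.8% of 32851 windows of all genes). GGGCGG was present in 21 (58.3%, against 32.7%) and TATAAA in 4 (11.1%, against 12.4%). These matches describe letters and not binding.

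The chains of the common skin fibrils moved little by comparison. Col1a1 held 20, 61 and 61 counts, with ratios to wild-type of 1.57 (0.953 to 2.80) and 1.55 (0.936 to 2.75) that were not called. Col1a2 held 18, 21 and 22, below wild-type after scaling by 1.64-fold (0.820 to 3.22) and 1.59-fold (0.802 to 3.10), also not called. Col3a1 held 18, 15 and 27 counts and was called 2.27-fold lower in Lgals7-/- than in wild-type (1.09 to 4.87). In Tg46 the ratio of Col3a1 to wild-type was 1.30-fold lower (0.671 to 2.44) and not called. Col5a2, the usual partner of Col5a1, held 18, 18 and 16 counts and was called 2.17-fold lower in Tg46 (1.05 to 4.57). The calls on Col3a1 and Col5a2 were lost with upper-quartile factors, at log2 ratios of -0.97 and -0.88.

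Col2a1, the chain of the main cartilage fibril, was the sole collagen gene called between Tg46 and Lgals7-/-. It held 6, 42 and 15 counts, so Lgals7-/- was the high library. It was called 3.43-fold higher in Lgals7-/- than in wild-type (1.55 to 10.6) and 2.79-fold lower in Tg46 than in Lgals7-/- (1.55 to 5.53). Markers of cartilage beside it had another order. The 7 cartilage markers together held 19, 79 and 102 counts, or 110, 240 and 304 CPM, with 0 of the 7 at 0. Per kb they stood at 4.22, 9.21 and 11.7 CPM, lowest in wild-type and in Tg46 above the 10.4 CPM per kb of all genes. Among them Acan, the aggrecan core protein, held 1, 28 and 35 counts. The part of such cells in the Col2a1 counts was not tested. Col24a1, a minor fibrillar collagen, held 25, 28 and 20 counts and was called 2.41-fold lower in Tg46 than in wild-type (1.29 to 4.60). The rest of the fibrillar class, Col5a1 with 25, 38 and 49 counts, Col11a2 with 25, 36 and 47 and Col27a1 with 23, 52 and 77, was not called in any comparison. Exons of Col5a1 overlap those of 2810430I11Rik and Gm13372 on the opposite strand.

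Of the 9 fibril-associated collagens, 1 was called higher and 1 lower in Lgals7-/- over wild-type (11.1% each, against 13.3% and 13.7% of all genes). In Tg46 over wild-type 1 was called higher and 2 lower (11.1% and 22.2%, against 13.7% and 13.9%), and in Tg46 over Lgals7-/- 0 (against 8.43% and 7.73%). Col12a1, which lies on type I fibrils in skin and tendon, held 44, 41 and 42 counts. Equal counts in libraries of unequal size made it 2.04-fold lower in Lgals7-/- (1.31 to 3.21) and 2.03-fold lower in Tg46 (1.30 to 3.18), calls that lie close to the 2-fold threshold. With upper-quartile factors neither was called (log2 ratios -0.82 and -0.78), and with total counts the first was not (-0.96). Col19a1 held 19, 19 and 18 counts and was called 2.04-fold lower in Tg46 (1.02 to 4.14), a call lost with upper-quartile factors (-0.79). Col20a1 held 7, 31 and 16 counts and was called 2.20-fold higher in Lgals7-/- (1.004 to 6.25), and Col22a1, a collagen of tissue junctions, held 9, 25 and 38 and was called 2.09-fold higher in Tg46 (1.03 to 5.12). The call on Col20a1 was lost with DESeq2 size factors, and that on Col22a1 with DESeq2 and total-count scaling. Exons of Col22a1 overlap those of Gm16308 on the opposite strand by 16 bases. The other members were Col14a1 with 17, 31 and 18 counts, Col16a1 with 21, 46 and 33, Col9a1 with 13, 17 and 13, Col9a2 with 15, 14 and 13 and Col9a3 with 7, 6 and 11, and none of these was called.

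The basement membrane collagen IV genes stand in 3 neighbouring pairs, each pair read in opposite directions. Col4a1 and Col4a2 encode the chains found in nearly all basement membranes. Col4a1 held 2, 17 and 35 counts, whereas Col4a2 held 18, 24 and 27. Col4a1 was called 3.67-fold higher in Lgals7-/- (1.06 to 39.8) and 7.32-fold higher in Tg46 (2.32 to 77.4), and Col4a2 was called in no comparison. The annotated extents of the genes overlap by 85 bases at their starts on chromosome 8, and their exons by 22 bases in the gene models used for exon length. The call on Col4a1 in Lgals7-/- was lost when 5 counts were added to each library (log2 ratio 0.72), and both calls rest on the wild-type count of 2. With upper-quartile factors Col4a1 was also called higher in Tg46 over Lgals7-/-.

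Col4a3 and Col4a4, best known from the kidney filter, had nearly the same counts in each library, 31, 24 and 44 for Col4a3 and 28, 25 and 42 for Col4a4. Lgals7-/- was the low library for both, and they were called 2.45-fold (1.40 to 4.38) and 2.13-fold (1.20 to 3.82) lower there than in wild-type. In Tg46 neither was called. With upper-quartile factors Col4a4 was not called in Lgals7-/- (-0.88). Exons of Col4a3 overlap those of C430014B12Rik on the opposite strand by 563 bases. Col4a5 and Col4a6, chains of the epidermal basement membrane, held 8, 24 and 14 and 13, 27 and 14 counts and were not called in any comparison.

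Of the 6 collagen VI genes, whose products form beaded filaments around cells, 2 were called lower and 0 higher in each comparison with wild-type (33.3% lower, against 13.7% and 13.9% of all genes, on a base of 6 genes). Col6a1 held 27, 15 and 22 counts and was called 3.38-fold lower in Lgals7-/- (1.76 to 6.94) and 2.37-fold lower in Tg46 (1.31 to 4.39). Col6a6, an alternative long chain, held 24, 18 and 12 and was called 2.52-fold lower in Lgals7-/- (1.32 to 4.97) and 3.80-fold lower in Tg46 (1.87 to 8.51); its exons overlap those of Gm38314 on the opposite strand by 63 bases. Wild-type was the high library for both genes, and the ratios kept their calls under the other 3 scalings. Col6a2 held 24, 23 and 40 counts and in Lgals7-/- lay 1.99-fold below wild-type (1.07 to 3.69), just inside the threshold and not called. Col6a3, the longest of the common chains, held 24, 48 and 48, Col6a4 8, 20 and 30 and Col6a5 18, 33 and 23, and none was called. The summed collagen VI count was 0.659 times wild-type in Lgals7-/- (0.518 to 0.841) and 0.722 times in Tg46 (0.570 to 0.915).

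Col28a1, a collagen known from peripheral nerve, held 25, 10 and 7 counts. It was called 4.63-fold lower in Lgals7-/- (2.21 to 11.1) and 6.60-fold lower in Tg46 (2.91 to 19.0). Its calls, those of Col11a1 and that of Col4a1 in Tg46 were the 5 collagen calls whose intervals lay wholly beyond 2-fold. The share of all genes meeting that stricter rule was not counted. Schwann cell markers beside Col28a1 were also uneven. Cdh19 held 26, 0 and 3 counts, and the 6 Schwann cell markers together held 284, 167 and 191 CPM, with 1 of the 6 at 0 in wild-type and 1, Cdh19, at 0 in Lgals7-/-. Their part in the Col28a1 counts was not tested. Col26a1, the other member with no class of its own, held 2, 8 and 15 counts and was not called.

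The 3 membrane-spanning collagens all had ratios above 1 against wild-type, as did 6897 (Lgals7-/-) and 6884 (Tg46) of the 12940 genes compared. For Col25a1 in Tg46 the ratio was 1.06 (0.469 to 2.73). Col13a1, found at cell adhesions, held 3, 21 and 18 counts and was called 3.22-fold higher in Lgals7-/- (1.10 to 19.2), a call lost with 5 counts added (log2 ratio 0.77). In Tg46 it stood 2.72-fold above wild-type (0.903 to 16.4) and was not called. Col23a1 held 11, 36 and 33 counts and Col25a1, known from neurons, 9, 29 and 19, with no calls. Summed, this class was 1.96 times wild-type in Lgals7-/- (1.23 to 3.26) and 1.57 times in Tg46 (0.967 to 2.63). The multiplexins of the basement membrane zone, Col15a1 with 15, 20 and 33 counts and Col18a1 with 21, 49 and 37, were not called, and their sum was 1.01 and 1.002 times wild-type. Among the short-chain network collagens, Col10a1 stood 1.62-fold above Lgals7-/- in Tg46 (1.14 to 2.34), below the threshold, and Col8a2 held 8, 10 and 15 counts.

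Chains that assemble into the same trimer can be compared within a library, where no scaling between libraries enters. The 10 pairs were listed after the counts had been seen. Per kb of exon, Col1a1 stood 2.10 times above Col1a2 for wild-type (1.06 to 4.22), 5.50 times for Lgals7-/- (3.30 to 9.51) and 5.25 times for Tg46 (3.18 to 8.98). These ratios depend on exon length merged over all annotated transcripts, 6563 bases for Col1a1 and 12426 for Col1a2. The wild-type counts were 20 and 18. The odds of a Col1a1 count over a Col1a2 count differed from wild-type by a factor of 2.59 in Lgals7-/- (exact interval 1.07 to 6.31) and 2.48 in Tg46 (1.03 to 5.99). Type I collagen is a trimer of α1 and α2 chains in unequal number, with more α1 than α2.

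For Col4a1 over Col4a2 the ratio per kb was 0.0985 for wild-type (0.0111 to 0.412), 0.628 for Lgals7-/- (0.317 to 1.22) and 1.15 for Tg46 (0.676 to 1.97). Only the wild-type interval excluded 1, and the odds in Tg46 were 11.4 times those in wild-type (2.39 to 109). The pair Col4a3 and Col4a4 stood at 1.18, 1.02 and 1.12, and its odds did not differ between libraries beyond counting error (0.868 and 0.947 against wild-type, intervals 0.379 to 1.98 and 0.462 to 1.94).

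Col11a1 over Col11a2, both chains of type XI collagen, stood at 0.906 for wild-type (0.540 to 1.55), 0.195 for Lgals7-/- (0.0948 to 0.376) and 0.103 for Tg46 (0.0445 to 0.213). Relative to wild-type the odds were 0.218 (0.0881 to 0.514) and 0.116 (0.0425 to 0.290). Col5a3 over Col5a1 stood at 0.249, 1.08 and 1.12, with odds 4.28 (1.40 to 16.0) and 4.44 (1.49 to 16.1) times those of wild-type. Against wild-type, odds intervals included 1 for Col5a1 over Col5a2, Col4a5 over Col4a6, Col6a1 over Col6a2, Col6a3 over Col6a2 and Col8a1 over Col8a2. None of the 10 pairs had an interval excluding 1 for Tg46 over Lgals7-/-.

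**Figure D4:**
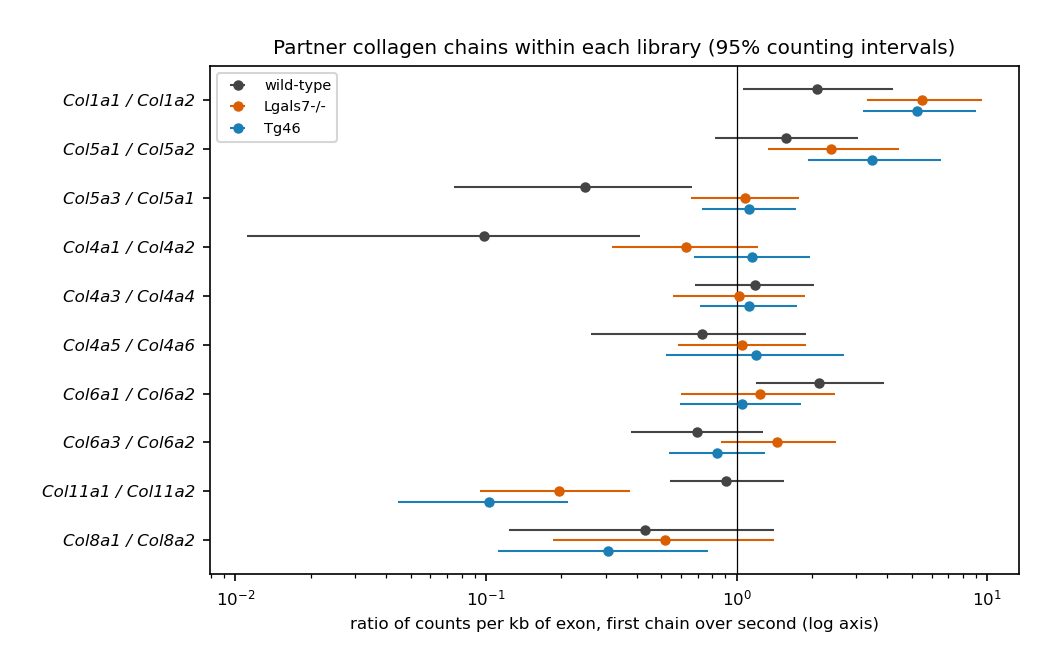
Ratio of counts per kb of exon between 2 chains of the same collagen type within each library, on a log axis, with exact 95% counting intervals; the vertical line marks equal levels. Wild-type stands apart for Col4a1 / Col4a2 (0.0985), Col5a3 / Col5a1 (0.249) and Col11a1 / Col11a2 (0.906), whereas Col4a3 / Col4a4 lies at 1.18, 1.02 and 1.12.

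The genes that make, process, organize and sense collagen were counted from fixed lists. Of 20 genes of collagen synthesis and secretion, 16 were compared. In Lgals7-/- over wild-type, 2 were called higher and 2 lower (12.5% each, against 13.3% and 13.7% of all genes). The median log2 ratio was 0.47, beside 0.10 over all genes. In Tg46 over wild-type 5 were called higher and 1 lower (31.2% and 6.25%, against 13.7% and 13.9%), with a median of 0.87 beside 0.11. Mia3, which loads procollagen into transport vesicles, held 4, 24 and 46 counts and was 2.86-fold higher in Lgals7-/- (1.08 to 12.5) and 5.33-fold higher in Tg46 (2.16 to 22.7). Creb3l1, a transcription factor of secretory cells, held 1, 15 and 11 counts and was 5.42-fold higher in Lgals7-/- (1.21 to 331). P3h1, a prolyl 3-hydroxylase, held 0 counts in wild-type and 11 in Tg46, at least 1.29-fold higher by the lower bound of its interval. Colgalt1, a collagen galactosyltransferase, held 3, 13 and 22 counts and was 3.31-fold higher in Tg46 (1.14 to 19.7), with exons overlapping those of Unc13a. P3h3, another prolyl 3-hydroxylase, held 13, 6 and 10 and was 3.96-fold (1.46 to 13.2) and 2.49-fold (1.02 to 6.42) lower in Lgals7-/- and Tg46. Sec24d, a coat protein of the vesicles that leave the endoplasmic reticulum, held 17, 9 and 16 counts and was 3.51-fold lower in Lgals7-/- (1.52 to 9.16). In Tg46 over Lgals7-/- 2 were called higher (12.5%, against 8.43%) and 0 lower, the former the lysyl hydroxylases Plod1 at 2.73-fold (1.45 to 5.73) and Plod3, which overlaps Znhit1, at 2.26-fold (1.11 to 5.21).

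Of 14 genes of propeptide processing and crosslinking, 11 were compared and 4 were called higher and 0 lower in each comparison with wild-type (36.4%, against 13.3% and 13.7% of all genes). In Tg46 over Lgals7-/- 0 were called either way. Bmp1, the protease that removes the C-terminal propeptide, held 1, 23 and 20 counts and was 8.22-fold higher in Lgals7-/- (1.96 to 497) and 7.05-fold higher in Tg46 (1.65 to 427). Adamts14, which removes the N-terminal propeptide, held 2, 29 and 18 counts, with ratios of 6.19 (1.93 to 65.8) and 3.81 (1.11 to 41.2). Pcolce, which enhances that C-terminal cleavage, held 2, 17 and 23, with ratios of 3.67 (1.06 to 39.8) and 4.85 (1.46 to 51.9), and its exons overlap those of Gm36266. The fourth gene was Loxl4, a lysyl oxidase, at 11, 44 and 49 counts, 2.03-fold (1.07 to 4.51) and 2.22-fold (1.18 to 4.90) higher. The collagen genes as a set had median log2 ratios of -0.41 and -0.23 in the same comparisons, and the fibrillar collagens alone -0.41 and -0.06.

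Fibril-organizing and matricellular genes were mostly not called. Of 15 compared out of 21, 1 was called higher and 2 lower in Lgals7-/- over wild-type (6.67% and 13.3%, against 13.3% and 13.7% of all genes). Against wild-type, Tg46 had 1 higher and 0 lower (6.67% and 0%, against 13.7% and 13.9%). Prelp, a leucine-rich proteoglycan, held 0, 24 and 12 counts, at least 3.16-fold and 1.43-fold higher by the lower bounds of its intervals. Its exons overlap those of Gm15851. Postn (periostin) held 11, 5 and 11 counts and was 3.98-fold lower in Lgals7-/- (1.34 to 15.4), and Thbs2 was 2.12-fold lower there (1.05 to 4.36). In Tg46 over Lgals7-/- Thbs1, with an overlap with Gm29233, was the 1 gene called (6.67%, against 8.43% higher), at 2.07-fold higher (1.06 to 4.45).

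Of 17 other basement membrane genes, 2 were called higher and 4 lower in Lgals7-/- over wild-type (11.8% and 23.5%, against 13.3% and 13.7% of all genes). Lama1, a laminin chain, held 26, 10 and 25 counts and was 4.81-fold lower in Lgals7-/- (2.31 to 11.5), and Pxdn, the peroxidase that crosslinks collagen IV, held 25, 12 and 14 and was 3.89-fold lower (1.92 to 8.67). In Tg46 over wild-type 1 was called higher and 2 lower (5.88% and 11.8%, against 13.7% and 13.9%), the latter Lama1 at 2.02-fold (1.12 to 3.64) and Pxdn at 3.41-fold (1.73 to 7.21). In Tg46 over Lgals7-/- 2 were called higher and 1 lower (11.8% and 5.88%, against 8.43% and 7.73%), with Lama1 at 2.39-fold (1.14 to 5.73) and Lama4, a laminin chain of vessels, at 3.08-fold higher (1.34 to 8.91). Col17a1, in this list as a keratinocyte collagen, held 16, 67 and 64 counts and was 2.15-fold (1.26 to 4.06) and 2.02-fold (1.18 to 3.82) higher than in wild-type. Col7a1 held 22, 68 and 68 counts and was not called.

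Of 10 collagen receptor and uptake genes compared out of 13, 1 was called higher and 2 lower in Lgals7-/- over wild-type (10% and 20%, against 13.3% and 13.7% of all genes). For Tg46 over wild-type 1 was called each way (10%, against 13.7% and 13.9%), and in Tg46 over Lgals7-/- 0 (against 8.43% and 7.73%). Itga1, the α1 chain of a collagen-binding integrin, held 22, 11 and 12 counts and was 3.73-fold (1.77 to 8.70) and 3.49-fold (1.69 to 7.88) lower. Mrc2, an endocytic receptor for collagen, was 2.86-fold higher in Lgals7-/- (1.08 to 12.5), and Itgb1, the shared integrin β1 chain, 2.42-fold higher in Tg46 (1.06 to 7.58). Ddr2, a receptor kinase for fibrillar collagen, was 2.20-fold lower in Lgals7-/- (1.14 to 4.31), with an overlap with 3110045C21Rik.

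Of 14 TGF-β pathway genes compared out of 17, 4 were called higher and 4 lower in Lgals7-/- over wild-type (28.6% each, against 13.3% and 13.7% of all genes). In Tg46 over wild-type 3 were higher and 2 lower (21.4% and 14.3%, against 13.7% and 13.9%), and in Tg46 over Lgals7-/- 3 and 1 (21.4% and 7.14%, against 8.43% and 7.73%). TGF-β is a growth factor known to raise collagen transcription in fibroblasts. Smad7, an inhibitor that TGF-β induces, held 0, 14 and 25 counts, at least 1.74-fold and 3.24-fold higher by the lower bounds of its intervals. Tgfbr1, a receptor kinase, held 17, 10 and 7 counts and was 3.18-fold (1.40 to 7.91) and 4.53-fold (1.86 to 13.4) lower. Skil, a repressor of SMAD proteins, held 25, 11 and 11 and was 4.22-fold (2.06 to 9.75) and 4.30-fold (2.09 to 9.93) lower. Ltbp4, a latent TGF-β binding protein, held 25, 11 and 33 counts, 4.22-fold lower in Lgals7-/- than in wild-type (2.06 to 9.75) and 2.86-fold higher in Tg46 than in Lgals7-/- (1.45 to 6.46). Tgfb3, a TGF-β ligand whose exons overlap those of Gm37804 and Gm48008, held 4, 25 and 11 counts and was 2.26-fold lower in Tg46 than in Lgals7-/- (1.10 to 5.21). The list thus held calls in both directions.

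**Figure D5:**
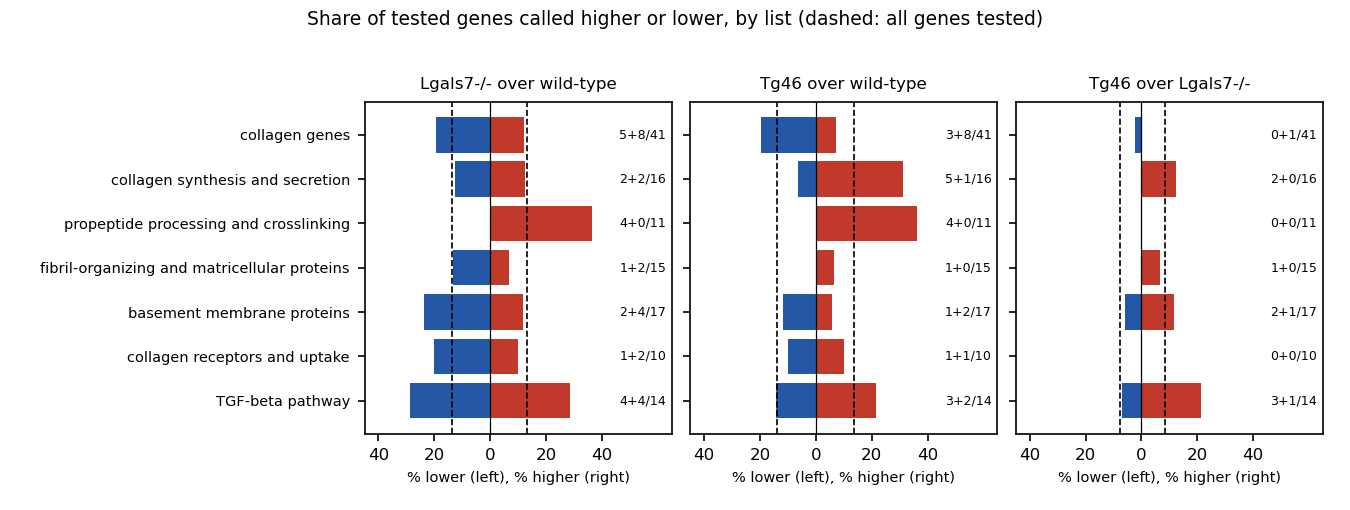
Share of compared genes called higher (right) or lower (left) in the collagen genes and 6 related lists, in percent; the figures at the right give the number higher, plus the number lower, of the number compared, and dashed lines give the shares among all genes compared. Propeptide processing and crosslinking genes reach 36.4% higher in both comparisons with wild-type, from 4 of 11 genes compared, and collagen genes 19.5% lower. Genes near 0 in wild-type could pass the filter through the other libraries, which favours calls higher.

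Markers of the cells that could make these collagens were sparse. Of 12 fibroblast markers, 6 were at 0 in wild-type (Thy1, Dpt, Twist2, Lum, S100a4 and Vim) and 0 in the other libraries. Together they held 162, 313 and 349 CPM. Wild-type was thus the lowest library for the fibroblast markers and the highest for summed collagen, at 4294, 3430 and 3613 CPM, whereas Tg46 was above Lgals7-/- in both. Pdgfra, a receptor of fibroblasts, held 2, 24 and 25 counts, but Dcn, a proteoglycan abundant in dermal fibroblasts, only 5, 3 and 5. Exons of Pdgfra overlap those of Gm42802 and Gm42803 on the opposite strand. Endothelial markers held 527, 383 and 424 CPM (Cldn5 at 0 in wild-type), pericyte and smooth muscle markers 370, 516 and 468 (Cnn1 and Rgs5 at 0 in wild-type), skeletal muscle markers 1377, 1182 and 979, macrophage markers 295, 386 and 325, adipocyte markers 156, 109 and 146 (Plin1 at 0 in wild-type), and keratinocyte markers 1024, 1795 and 2271. Of the 27, 36 and 49 adipocyte marker counts, Pparg alone held 18, 2 and 2, and the wild-type count of each of the other 5 was at most 3. Keratinocyte markers had their lowest summed level in wild-type, where summed collagen was highest. Of the 9 markers, 6 had a ratio above 1 in Lgals7-/- over wild-type and 7 in Tg46 over wild-type. Itga6 at 174, 72.9 and 110 CPM and Trp63 at 98.4, 54.7 and 62.7 were instead highest in wild-type. The part of these cells in the collagen counts was not tested.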

How the data were processed

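Per the labels, RNA of 3 pooled papillomas per genotype was isolated with TRIzol and a column kit and made into 1 library. The deposited table holds raw counts by Entrez identifier, on mm10 per the submitters' processing notes. The sources used here name no aligner, counter or strand setting. Among 24028 identifiers, 23968 had a RefSeq symbol (GRCm38.p6), and 23697 had an exon length from GENCODE M21, merged over all transcripts of the gene.

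TMM factors (edgeR 4.0.16, R 4.3.3) were computed over genes with 10 counts in at least 1 library. Ratios had 0.5 counts added to each library, with exact 95% Clopper-Pearson intervals. Against 0 counts only the lower bound of the exact interval is given. Having 1 library per genotype allows no replicate-based test, so p-values are absent. Intervals were tested on simulated data. Named genes were every collagen gene, and up to 3 called genes per comparison of each other list, by the interval bound farthest from 1. A few genes that this rule names are not reported here. Loxl4, Tgfbr1, Pdgfra and Dcn, and the pairs of partner chains, were chosen after their values were seen. The members, lists and receptor set were chosen with earlier results of these data known. Alternatives included DESeq2 1.42.0 size factors. Python 3.11.15 and scipy 1.17.1 were used.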

Additional observations from a re-analysis of the deposited data

How the results depend on the processing

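No paired analysis was possible because there is just 1 library of every genotype. Below, triples of called collagen genes refer to Lgals7-/- against wild-type, then Tg46 against wild-type, then Tg46 against Lgals7-/-. With upper-quartile factors 5, 7 and 1 were called higher and 5, 5 and 1 lower, and the summed ratios to wild-type were 0.926 and 0.993. Of these, Col13a1, Col26a1, Col27a1 and Col6a4 (Tg46 over wild-type) and Col4a1 (Tg46 over Lgals7-/-) were called higher under that scaling alone. With total counts 3 were lower in Tg46 than in Lgals7-/- (Col2a1, Col20a1 and Col4a6), and that summed ratio was 0.946. Adding 5 counts left 1 higher in Lgals7-/- over wild-type. A 4-fold threshold left 0 higher and 2 lower in Lgals7-/-, 2 lower in Tg46 over wild-type and 0 lower in Tg46 over Lgals7-/-. Requiring the whole interval to lie past 2-fold gave 0, 1 and 0 higher, and 2, 2 and 0 lower. The shares of all genes called under the other scalings, added counts and stricter thresholds were not counted. DESeq2 size factors added Col6a2 (lower in Lgals7-/-) and, as did total counts, Col9a2 (lower in Tg46). Over the 32 genes with no opposite-strand exon overlap, 1 was higher in Tg46 over wild-type, the median log2 ratio in Lgals7-/- over wild-type was -0.08 rather than -0.41, and the summed ratio of Tg46 to Lgals7-/- was 0.939. The causes were not tested. No filter, 30 counts in the 3 libraries together and leaving out Col10a1 changed no count of calls. Of 175 recomputed ratios of called genes, 121 kept the call, 54 lost it and 0 reversed, and 17 of 25 calls held under all 3 other scalings. At these depths a count of 2 to 10, common in wild-type, gives intervals several-fold wide, which limits every ratio to wild-type.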
